A study of Homo sapiens with 14 samples.

Results

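Jurkat is an established T-cell acute lymphoblastic leukemia (T-ALL) cell line, and 2 of the 14 arrays of this study were made from it. The first was from cells exposed to the PI3K inhibitor AS605240 for 6 h, and the second from cells exposed to vehicle for 6 h. The other 12 arrays were from ALL-SIL, CCRF-CEM, HPB-ALL, Molt-4, P12-ICHIKAWA and TALL-1, also T-ALL lines, with 1 AS605240 and 1 vehicle array each. All lines grew in RPMI-1640 with 10% fetal bovine serum, with fresh medium before treatment, and each received AS605240 at its own IC50, the concentration that reduced survival of that line to the midpoint. The doses of ALL-SIL and HPB-ALL were close to that of Jurkat, that of CCRF-CEM was lower and those of Molt-4, P12-ICHIKAWA and TALL-1 were higher. The part of dose in the differences was not tested. The Jurkat arrays were chosen by the cell line in their labels, and each gene was read from the brightest probe set that names that gene alone, which gave 19775 genes. Values are signal intensities, or differences of log2(signal + 16), a scale with a floor of 4 that understates the change of a dim gene.

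PI3K is a lipid kinase that works downstream of antigen, cytokine and growth factor receptors. Through Akt and mTOR it promotes nutrient uptake, ribosome production, lipid synthesis and entry into the cell cycle, and lipid phosphatases such as SHIP1, encoded by INPP5D, oppose it. Jurkat has served for decades as a model of signaling from the T-cell receptor. The comparisons ask which genes set Jurkat apart from the other lines whatever the treatment, and where its change with AS605240 departed from theirs.

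The Jurkat arrays were of the same technical range as the others or slightly brighter. Their median signal was 41.0 with AS605240 and 40.4 with vehicle, against 32.2 to 40.5 on the other arrays, and 47.5% and 47.2% of genes had a signal over 50, against 44.6% to 47.2%. Polyadenylated spike-in controls averaged 6.58 and 6.47 on the log2 scale in Jurkat, against 5.69 to 6.45. The part of this brightness in the results was not tested beyond the rescalings given in the closing section. P12-ICHIKAWA and TALL-1 were nearly identical to each other, with a Pearson r of 0.996 across the 19775 genes, against at most 0.953 for any other pair of lines, and they count as separate lines unless stated.

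The T-cell label was borne out by the markers. All 11 measured T-cell markers were over 50 on both Jurkat arrays, with a summed signal of 21777 with AS605240 and 22985 with vehicle, against 11317 to 23482 on the other arrays. Of 8 B-cell markers, 2 were over 50, BLK and CD79A, and CD22, CD79B, EBF1, MS4A1, PAX5 and VPREB1 were not. The B-cell sums were 356 and 427 in Jurkat against 65.4 to 527. BLK, at 79.9 with AS605240 and 97.2 with vehicle, and EBF1, at 30.4 and 17.9, lay above the 12 other arrays, which reached 70.4 and 6.82. None of the 8 lay below those arrays. Of 8 myeloid markers 1 was over 50, with sums of 202 and 195 against 183 to 292. Of 9 epithelial and fibroblast markers 2 were over 50, with sums of 468 and 444 against 312 to 865.

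By overall level, Jurkat was most like Molt-4 and least like ALL-SIL. The Pearson r with Jurkat across genes was 0.953 for Molt-4, 0.940 for CCRF-CEM, 0.933 for TALL-1, 0.931 for P12-ICHIKAWA, 0.910 for HPB-ALL and 0.907 for ALL-SIL. These are descriptions over 19775 genes that share the same arrays. The number of genes over 4-fold apart from Jurkat in both conditions ran from 263 for Molt-4 to 768 for ALL-SIL.

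The genes that set Jurkat apart by level included a group usually tied to the nervous system, the Notch ligand JAG1 and the kinase SYK on the high side, and KLHL9, PBDC1 and several zinc finger genes on the low side. For this comparison the 2 arrays of each line were averaged, and Jurkat was tested against the 6 other lines with limma, at a Benjamini-Hochberg adjusted p under 0.05 and a difference over 1 on the log2 scale. Of 19775 genes, 46 (0.233%) were higher in Jurkat and 16 (0.0809%) were lower, with 1011 genes at an unadjusted p under 0.05. Jurkat enters this test as 1 line that is assumed to vary like the other 6, so a gene that varies widely among those lines is seldom called. A gene at the floor in the other lines has little spread there, so its SE can be small whatever the spread of the 2 Jurkat arrays. In RNA of whole cultures, fewer cells with a transcript and less of it per cell cannot be told apart. Both Jurkat arrays lay above the 12 others for 1184 genes (5.99%) and below them for 624 (3.16%), against 378 to 1598 above and 341 to 1427 below when each other line was taken in its place.

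TSPYL5, of the nucleosome assembly protein family, gave the widest separation. Its signal was 4478 with AS605240 and 5302 with vehicle in Jurkat, against a lowest, median and highest value of 2.57, 5.00 and 7.54 on the other 12 arrays. Both Jurkat arrays were far above every other array, and the difference was 7.85 ± 0.13 on the log2 scale (SE; adjusted p = 5.13e-06). TMEM98, a membrane protein gene, was at 3167 and 3768 in Jurkat, against 0.0101, 17.3 and 43.9 in the other lines (6.74 ± 0.62; adjusted p = 0.0116). IGF2BP1, which encodes an RNA-binding protein of fetal tissues, was at 1506 and 1715, against 5.46, 8.87 and 14 in the other lines (6.02 ± 0.13; adjusted p = 1.25e-05). Neither gene overlapped between Jurkat and the rest.

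Genes of neural development and signaling were bright in Jurkat and at the bottom of the scale elsewhere. SOX1, a transcription factor of neural progenitors, had a signal of 1120 and 1214 in Jurkat, against 5.85, 9.34 and 18.9 in the other lines (difference 5.53 ± 0.17; adjusted p = 3.77e-05), from 1 of its 3 probe sets. PRDM13, a transcription factor of spinal cord and retinal neurons, was at 1505 with AS605240 and 2550 with vehicle, against 14.1, 18.8 and 25.7 (5.84 ± 0.14; adjusted p = 1.25e-05). ADCYAP1, which encodes the neuropeptide PACAP, was at 999.9 and 996 in Jurkat, against 6.52, 12.5 and 17.5 in the other lines (5.20 ± 0.19; adjusted p = 9.86e-05). No other array came near the Jurkat values of these genes. SOX11, a relative of SOX1 in another SOX group, was dimmer, at 85.1 and 80.0 in Jurkat and at most 2.32 elsewhere. They are grouped here by their known roles after their values were seen, and no test was made of the group.

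Other genes with a wide gap on the high side had varied roles. SNX9, a sorting nexin of clathrin-mediated endocytosis, was at 923 and 942 in Jurkat, against 1.28, 5.48 and 8.15 (5.47 ± 0.13; adjusted p = 1.25e-05). SPSB4, an adaptor of ubiquitin ligases, was at 924 and 1140, against 0.539, 4.26 and 9.33 (5.67 ± 0.14; adjusted p = 1.25e-05). EFEMP1, an extracellular matrix protein gene, was at 764 and 791, against 0.00257, 4.40 and 11.0 (5.24 ± 0.19; adjusted p = 9.01e-05). For each of these the Jurkat arrays stood alone. CDC42BPA, a kinase that binds the small GTPase CDC42, differed from them in being less dim elsewhere: it was at 1322 and 1655 in Jurkat, against 33.8, 41.1 and 56.7 (4.63 ± 0.17; adjusted p = 9.01e-05). FAM201A was at 417 and 494 in Jurkat and at most 3.30 in the other lines (4.74 ± 0.10; adjusted p = 1.25e-05). ARHGEF12, an activator of RhoA, was at 280 and 233 in Jurkat and at most 2.11 elsewhere.

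Notch signaling drives many T-ALLs, and its ligand JAG1 and its targets HEY1 and HEY2 were higher in Jurkat. JAG1 had a signal of 420 with AS605240 and 542 with vehicle in Jurkat, against 8.78, 11.0 and 13.2 in the other lines (4.20 ± 0.12; adjusted p = 3.07e-05). A further JAG1 probe set gave 269 and 336 in Jurkat against 7.78 to 15.4, and its other 4 probe sets were dim. HEY1, a transcriptional repressor induced by Notch, was at 355 and 317, against 67.3, 83.6 and 102 in the other lines (1.82 ± 0.13; adjusted p = 0.004). HEY2 was at 32.2 and 29.4 in Jurkat and at most 3.99 elsewhere (adjusted p = 0.017), and was named after its values were seen. JAG1 and HEY1 were the 2 called members of the 24 measured Notch receptors, ligands, cofactors and targets, against 0.233% of all genes called higher. Both Jurkat arrays were above the rest for 3 of the 24 and below them for 1, against 5.99% and 3.16% of all genes. HES4 was the other member above, at 800 and 979 in Jurkat, against 1.39, 175 and 781 (adjusted p = 0.993). NOTCH1 itself was at 314 and 373, against 269, 640 and 1171 in the other lines, within their range.

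SYK, the kinase that carries the signal of the B-cell receptor, was present in Jurkat and at the floor elsewhere. Its signal was 352 with AS605240 and 254 with vehicle in Jurkat, against 0.00179, 1.09 and 2.26 in the other lines (4.22 ± 0.11; adjusted p = 1.65e-05). A total of 3 of its 4 probe sets showed the same separation. It was the 1 called member of 27 measured genes of proximal T-cell receptor signaling, against 0.233% of all genes called higher. ZAP70, its T-cell relative, was at 965 and 1035 in Jurkat, against 390, 506 and 1525, and LCK, which phosphorylates the CD3 chains, at 4497 and 4980, against 1338, 2699 and 3957. ZAP70 overlapped with the other lines and LCK lay just above them.

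The T-cell receptor complex itself was at common levels. CD3D had a signal of 5192 and 5370 in Jurkat, against 2704, 4213 and 5569 in the other lines, CD3E of 1196 and 1256, against 950, 1160 and 1673, and TRBC1 of 4875 and 4863, against 529, 5277 and 6408. CD3G, at 947 and 1161, was above the other lines, whose lowest, median and highest values were 185, 299 and 543 (1.70 on the log2 scale; adjusted p = 0.441). None of the 22 measured members was called with limma, and 1 had an unadjusted p under 0.05. The coreceptors were low, with CD4 at 55.8 and 48.1, against 95.0, 328 and 704, and CD8A at 15.6 and 8.08, against 0.839, 171 and 1428. CD247, the zeta chain, was at 1013 and 918, against 524, 658 and 1441. PTCRA, the pre-T-cell receptor alpha chain of immature thymocytes, was at 499 and 355, within a range of 17.2 to 1063.

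Of the genes given here that define T-ALL subtypes, TAL1 and LMO2 lay outside the other 12 arrays without passing the test. The other lines differed widely among themselves. TAL1, a transcription factor activated in many T-ALLs, had a signal of 1098 and 1012 in Jurkat, against 0.00194, 3.32 and 626 (adjusted p = 0.993). It was the highest of the 7 lines, with Molt-4 at 551 and 626 and CCRF-CEM at 256 and 224, and at most 4.99 in the remaining 4. Its partner LMO2 was at 0.691 and 2.38 in Jurkat, against 2.86, 109 and 623, just below every other array, and LMO1 at 19.6 and 20.5, against 4.93, 22.7 and 34.1. TLX1 and TLX3, homeobox genes that mark other subtypes, were near the floor in Jurkat, at 0.00469 and 0.0748 for TLX1 and at 9.68 and 11.8 for TLX3, while the highest values elsewhere were 638 and 1958. NR3C1, the glucocorticoid receptor through which prednisolone acts on leukemic cells, was at 412 and 352 in Jurkat, against 300, 1033 and 1210, at the low end of the other lines. None of the 27 measured T-ALL transcription factors was called with limma, and none had an unadjusted p under 0.05. Both Jurkat arrays lay above the 12 others for 1 of the 27 and below them for 1, against 5.99% and 3.16% of all genes.

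INPP5D, which encodes the PI3K antagonist SHIP1, was low in Jurkat. Its signal was 84.7 with AS605240 and 72.1 with vehicle, against 250, 288 and 842 in the other lines, without overlap. The difference of -1.91 ± 0.56 on the log2 scale did not pass the test (adjusted p = 0.69). A further probe set gave 18.5 and 16.5 in Jurkat against 55.0 to 232, and the third, at 18.6 and 24.7, lay within 11.7 to 50.2. None of 32 measured PI3K subunits, phosphatases and downstream kinases was called with limma, and 3 had an unadjusted p under 0.05. The gene of the lymphoid catalytic subunit, PIK3CD, was at 210 and 142 in Jurkat, against 127, 274 and 1298.

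Among surface molecules and tumor antigens, several separations were wide, and not all passed the test. CD44, the hyaluronan receptor, was at 0.104 and 3.30 in Jurkat, against 140, 422 and 1479 in the other lines, without overlap (-4.65; adjusted p = 0.441). PRAME, a cancer-testis antigen, was at 3007 and 3900, against 40.9, 61 and 593 (5.09; adjusted p = 0.358), and PECAM1, an adhesion receptor, at 9379 and 10318, against 39.8, 3089 and 7443. MAGEA4, another cancer-testis antigen, was called, at 42.5 and 62.7 in Jurkat and at most 2 elsewhere (2.04 ± 0.10; adjusted p = 0.000554). The stress-induced hormone gene STC2 was called from a dim signal, at 28.1 and 41.9, against 0.553, 2.77 and 7.66 (1.39 ± 0.17; adjusted p = 0.0427).

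The remaining genes called higher were dimmer in Jurkat, and those given here were named after their values were seen. TNFSF4, which encodes the OX40 ligand, was at 103 with AS605240 and 107 with vehicle in Jurkat and at most 17.3 on the other arrays. CD226, an activating receptor of T and NK cells, was at 23.7 and 40.4 and at most 5.97. MBP, the myelin basic protein gene, was at 357 and 310 and at most 29.7. HOXC6 and HOXB13, homeobox genes of body patterning, were at 60.8 and 43.6 and at 25.2 and 20.9, against at most 17.9 and 3.46 in the other lines.

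**Figure D1:**
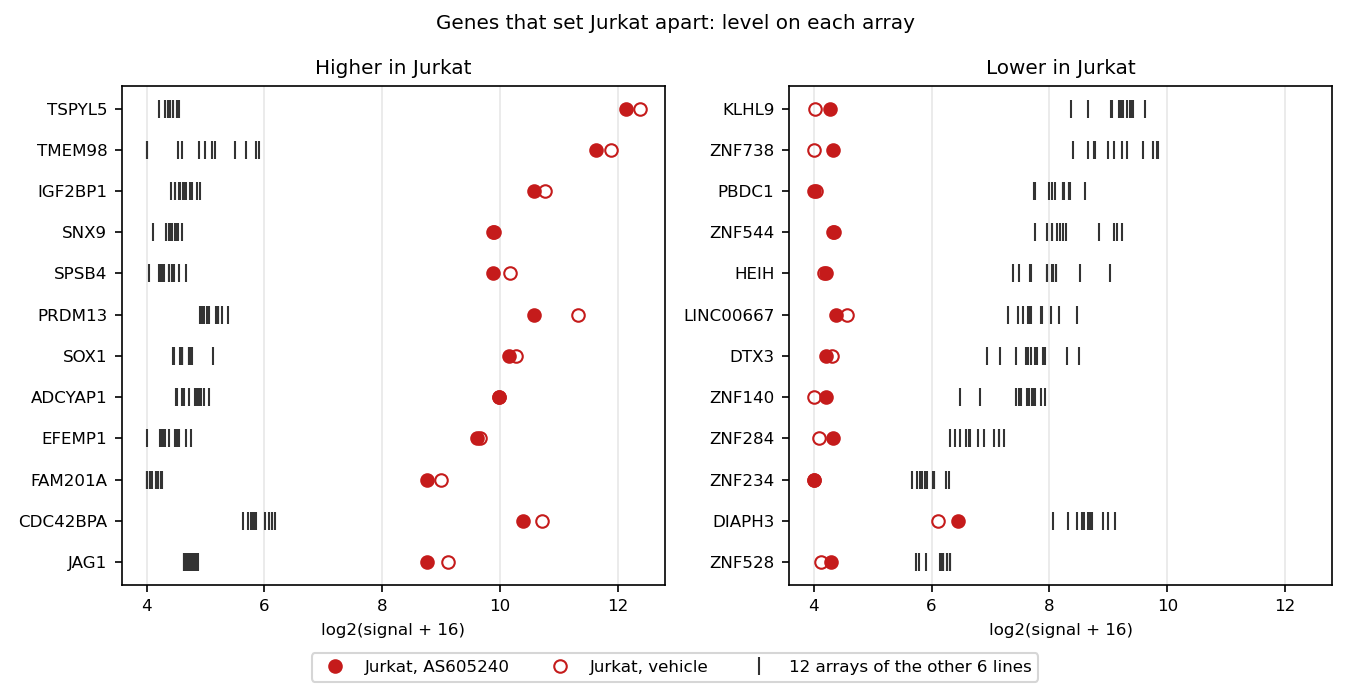
Levels, as log2(signal + 16), of the 12 genes with the widest gap above the other lines (left) and the 12 with the widest gap below them (right), on every array. Filled circles are Jurkat with AS605240, open circles Jurkat with vehicle, and ticks the 12 arrays of the other 6 lines. No Jurkat circle reaches the ticks of its gene. TSPYL5 has the widest gap upwards and KLHL9 that downwards.

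On the low side, KLHL9 and PBDC1 were at the floor of the scale in Jurkat and readily measured in each other line. KLHL9, an adaptor of a CUL3 ubiquitin ligase that works in mitosis, had a signal of 3.34 with AS605240 and 0.286 with vehicle in Jurkat, against 316, 585 and 775 in the other lines (-5.01 ± 0.34; adjusted p = 0.00302). Its next brightest probe set gave 0.535 and 0.363 against 159 to 311. KLHL9 lies on chromosome 9 among the interferon alpha genes. CDKN2A, a tumor suppressor gene of the same chromosome, was at 12.0 and 12.1 in Jurkat, against 11.4, 20.2 and 1894. PBDC1, on the X chromosome, was at 0.0163 and 0.392 in Jurkat, against 197, 285 and 372 (-4.14 ± 0.17; adjusted p = 0.000174). Both of its probe sets showed the gap.

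Zinc finger genes were frequent among the low genes. Proteins with KRAB and C2H2 zinc finger domains bind DNA, most of them repress transcription, and many of their genes lie in clusters on chromosome 19. Of the 16 genes called lower in Jurkat, 6 had a ZNF symbol and 5 of these lay on chromosome 19. Over all 19775 genes, 502 had such a symbol, and 234 of these lay on chromosome 19. Of the 46 genes called higher, 0 had such a symbol, and few would at the share over all genes. ZNF738 was at 4.14 with AS605240 and 0.00518 with vehicle in Jurkat, against 321, 560 and 900 in the other lines (-5.02 ± 0.47; adjusted p = 0.0127). ZNF544 was at 4.18 and 4.20, against 201, 279 and 585 (-4.07 ± 0.51; adjusted p = 0.0452). ZNF140, on chromosome 12, was at 2.57 and 0.00635, against 73.3, 183 and 228 (-3.39 ± 0.43; adjusted p = 0.0458). None of these 3 overlapped. ZNF284 was at 3.99 and 0.939 in Jurkat, against 63.1, 89.4 and 134 in the other lines. ZNF234 was at 0.00458 and 0.00332, against 34.7, 43.9 and 62.5. ZNF528 was at 3.55 and 1.36, against 37.5, 57.0 and 63.5. Their differences were -2.57, -1.94 and -1.92 on the log2 scale, with adjusted p-values of 0.0446, 0.0101 and 0.00837.

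The same held, as a description, for the wider family. Both Jurkat arrays lay below the 12 others for 71 of 502 measured ZNF genes (14.1%) and for 52 of the 234 on chromosome 19 (22.2%), against 3.16% of all genes. When another line took the place of Jurkat, the count on chromosome 19 was 23 (9.83%) for Molt-4, 10 (4.27%) for CCRF-CEM, 9 (3.85%) for HPB-ALL, 6 (2.56%) for ALL-SIL and 2 (0.855%) for each of P12-ICHIKAWA and TALL-1. In the opposite direction, 17 of 502 (3.39%) lay above the others in Jurkat, against 5.99% of all genes. Near ZNF738, ZNF85 was at 125 and 110 in Jurkat against 281 to 589 elsewhere, ZNF708 at 44.6 and 50.3 against 108 to 190, and ZNF493 at 32.0 and 42.1 against 153 to 353. Not all genes of that stretch were low: ZNF430, ZNF431, ZNF429 and ZNF100 overlapped with the other lines. ZNF100 was at 155 and 140 in Jurkat, against 86.8 to 217. This family was singled out after its values were seen, and many of its members have similar sequences.

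The remaining low genes were of varied function. The noncoding RNA gene HEIH was at 2.53 and 2.12 in Jurkat, against 151, 241 and 503 (-3.80 ± 0.31; adjusted p = 0.00663), and its neighbor LINC00847 at 4.15 and 6.06 against 51.2 to 128. LINC00667 was at 4.84 and 7.53, against 141, 188 and 339 (-3.31 ± 0.32; adjusted p = 0.0133), with its neighbor LINC00526 at 6.70 and 2.94 against 56.9 to 264. Both of these noncoding RNAs thus had a neighbor that was low in Jurkat. The neighbors on the other side, ZFP62 for HEIH and ZBTB14 for LINC00667, were within the range of the other lines. DTX3, a Deltex family ubiquitin ligase, was at 2.49 and 3.89, against 107, 196 and 345 (-3.46 ± 0.36; adjusted p = 0.0208). DIAPH3, a formin that nucleates actin filaments, kept a signal of 71.3 and 53.4, against 249, 390 and 535 (-2.36 ± 0.27; adjusted p = 0.0277). IFI44, an interferon-induced gene, was at 36.9 and 27.0, against 58.9, 80.7 and 103 (-1.02 ± 0.13; adjusted p = 0.046). It was the 1 called member of 36 interferon response genes, against 0.0809% of all genes called lower. Both Jurkat arrays lay below the 12 others for 5 of the 36 and above them for 3, against 3.16% and 5.99% of all genes. NAIP, a sensor of bacterial proteins in the inflammasome, was at 25.4 and 19 against 73.5 to 159, and IFT74, of intraflagellar transport, at 6.5 and 3.67 against 42.5 to 77.2, each with an adjusted p of 0.0221. TRIM24, a ubiquitin ligase and transcription cofactor, was at 164 and 98.2, against 376, 527 and 601 (-1.90 ± 0.20; adjusted p = 0.0221).

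The response to AS605240 was, for the genes that moved in the other lines, largely shared. Jurkat was left out when these genes were called, so that its own values were independent of the calls. In the other 6 lines 105 genes (0.531%) fell and 218 genes (1.1%) rose, at an adjusted p under 0.05 together with a mean change of more than 1.5-fold. In Jurkat 104 of the 105 and 213 of the 218 had a change of the same sign, which is 98.1% of the 323. The median change was -0.69 in Jurkat and -0.69 in the other lines for the genes that fell there, and 0.65 and 0.70 for those that rose. The size of the whole response, taken as the projection of the changes of a line on the mean changes of the other 6, was 0.772 in Jurkat, with CCRF-CEM at 0.556, HPB-ALL at 0.666, ALL-SIL at 0.734, Molt-4 at 0.890, P12-ICHIKAWA at 0.981 and TALL-1 at 1.02. Jurkat stood in the middle of that order, and 78 of its genes changed over 2-fold, against 47 to 170 in the other lines.

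The genes with the lowest and highest mean change in the other lines show the shared part. HSPA5, which encodes the endoplasmic reticulum chaperone BiP, had a signal of 914 with AS605240 and 2384 with vehicle in Jurkat, a change of -1.37 on the log2 scale, against -1.95 to -0.42 in the other lines. CCDC86, a nucleolar protein gene, was at 282 and 747, a change of -1.35, against -1.43 to -0.75. PNO1, of small ribosomal subunit assembly, was at 552 and 1030, a change of -0.88, against -1.40 to -0.75. The 3 changes were within the range of the other lines. The ribosome assembly gene RPF2 changed less in Jurkat than in any other line, by -0.83, against -1.33 to -0.89. ABTB1 was at 82.7 and 21.5 in Jurkat, a change of 1.40, against 1.18 to 2.11. NATD1 changed by 1.31, against 0.52 to 1.94. KLF2, a transcription factor that FOXO proteins induce in T cells, changed by 0.30, against -0.22 to 1.71, and ANXA2R by 0.63, against 0.48 to 2.36.

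The exceptions were 6 genes of the 323. PPP1R16B, a regulatory subunit of protein phosphatase 1, was at 53 with AS605240 and 77.4 with vehicle in Jurkat, a change of -0.44, against 0.11 to 1.04 in the other lines. PIM2, a survival kinase of lymphoid cells, was at 154 and 162, a change of -0.07, against 0.14 to 1.73. RGS1, a regulator of G protein signaling, was at 0.004 and 0.707 in Jurkat, the floor of the scale, and changed by 0.39 to 2.61 elsewhere. LOC101928902, H2BC21 and GDF10 were dim in Jurkat, at 20.0 or less, and changed by -0.66, -0.02 and 0.09. None of the 6 differed from the other lines in the test of the difference, with an adjusted p of 1 for each.

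**Figure D2:**
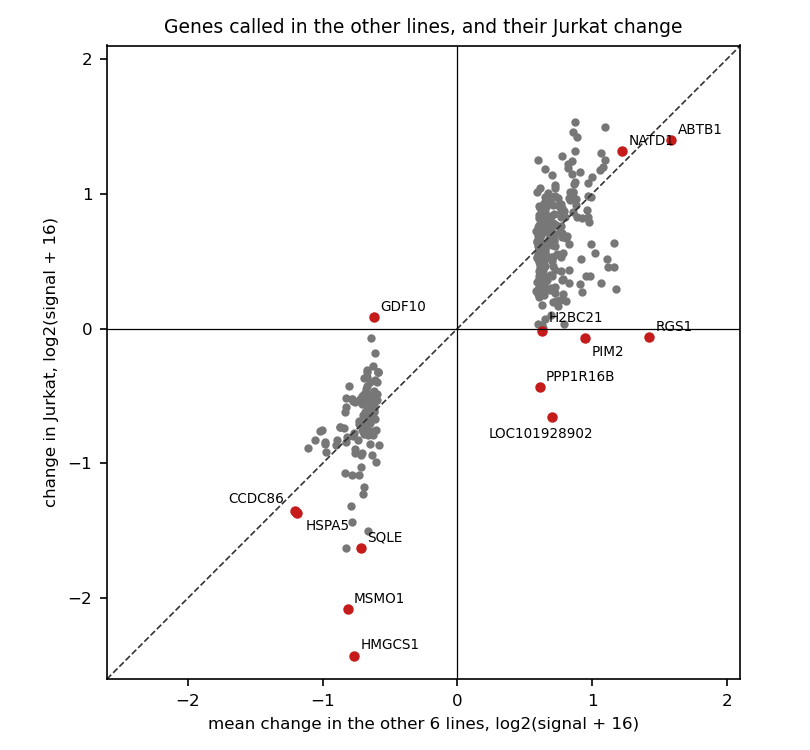
Change with AS605240 in Jurkat (vertical axis) against the mean change in the other 6 lines (horizontal axis), both on the log2(signal + 16) scale, for the 105 genes that fell and the 218 that rose in the other lines. The dashed line marks equal change, and red points are named. Of the 323 points, 317 lie in the lower left or upper right corner of the plot, and HMGCS1, MSMO1 and SQLE lie furthest below the dashed line among the genes that fell.

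Where the Jurkat response departed from the others, the clearest group was sterol synthesis. The change of Jurkat was tested against the 6 other changes with limma at an adjusted p under 0.05. Of 19775 genes, 3 (0.0152%) had a lower change in Jurkat, namely HMGCS1, DNAH10 and ICA1, and 2 (0.0101%) a higher one, ABLIM1 and LSAMP, with 630 genes at an unadjusted p under 0.05. Each Jurkat change is the difference of 1 pair of arrays, so the noise of a single array and the response of the line cannot be told apart for these genes. As a wider description, the Jurkat change lay below the range of the other 6 lines for 2667 genes (13.5%) and above it for 1955 (9.89%).

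Cells make cholesterol from acetyl-CoA through the mevalonate pathway, and when sterols are scarce the transcription factors SREBP2 and SREBP1, encoded by SREBF2 and SREBF1, switch its genes on. INSIG1 holds these factors in the endoplasmic reticulum and is itself a target. Of 39 genes listed for sterol and fatty acid synthesis 31 were measured, and the Jurkat change was the lowest of the 7 lines for 21 of them (67.7%), against 13.5% of all genes. It was the highest for 1, the cholesterol efflux transporter ABCA1. The other lines were lowest for 5 (HPB-ALL), 3 (ALL-SIL), 2 (P12-ICHIKAWA) and 0 (CCRF-CEM, Molt-4 and TALL-1) of the 31. The median change was -0.60 in Jurkat and -0.38 to -0.16 in the other lines, and the median difference was -0.42, against -0.02 over all genes. In the test of the difference 1 member, HMGCS1, was called lower and 0 higher, and 13 were lower and 1 higher at an unadjusted p under 0.05. Of the 31, 7 were among the genes that fell in the other lines.

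HMGCS1, which makes HMG-CoA early in the mevalonate pathway, carried the largest drop of the list. In Jurkat its signal was 298 with AS605240 and 1674 with vehicle, a change of -2.43. The AS605240 and vehicle signals were 175 and 239 in CCRF-CEM, 221 and 467 in HPB-ALL, 155 and 244 in Molt-4, 341 and 604 in P12-ICHIKAWA, 439 and 890 in ALL-SIL and 209 and 363 in TALL-1, with changes from -1.03 to -0.42. ALL-SIL and HPB-ALL had the changes nearest to that of Jurkat. With vehicle Jurkat had the highest level of the 7 lines, and with AS605240 it was within their range. The change was lower in Jurkat by a difference of -1.66 ± 0.22 (adjusted p = 0.027). The further probe set of the gene changed by -2.37 in Jurkat, against -1.59 to -0.49. The call was lost without Molt-4 (adjusted p = 0.0662) or without TALL-1 (adjusted p = 0.0575), with differences of -1.63 and -1.66.

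Enzymes further down the pathway had lower changes in Jurkat as well, without passing the test. IDI1, the isopentenyl diphosphate isomerase, was at 586 with AS605240 and 1690 with vehicle in Jurkat, a change of -1.50, against -0.77 to -0.49 (adjusted p = 0.415). SQLE, the squalene epoxidase, was at 464 and 1469, a change of -1.63, against -0.91 to -0.44 (adjusted p = 0.436), and its other 3 probe sets changed by -1.03 to -1.81. MSMO1, which removes methyl groups from lanosterol derivatives, was at 344 and 1507, a change of -2.08, against -1.06 to -0.46 (adjusted p = 0.122). In each case the Jurkat change lay outside the range of the other lines by a wide margin. MVD, the mevalonate diphosphate decarboxylase, was at 62.7 and 156, a change of -1.13, against -0.33 to 0.31 in lines where it was dim. LSS, the lanosterol synthase, was at 519 and 1049, a change of -0.99, against -0.61 to -0.31. HSD17B7, of the same branch, was at 453 and 771, a change of -0.75, against -0.15 to 0.32. DHCR7, the last enzyme of cholesterol synthesis, changed by -1.43, close to the -1.35 of HPB-ALL.

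Regulators and lipid genes outside the pathway itself showed the pattern in part. INSIG1 was at 1314 with AS605240 and 2696 with vehicle in Jurkat, a change of -1.03, against -0.32 to 0.03 (adjusted p = 0.436), and all 3 of its probe sets were below the range of the other lines. STARD4, a sterol transfer protein, was at 153 and 380, a change of -1.23, against -0.49 to -0.29 (adjusted p = 0.415). SREBF2 was at 234 and 362, a change of -0.60, against -0.48 to 0.07. SREBF1 changed by -0.31 in Jurkat, next to -0.29 in CCRF-CEM and against 0.18 to 0.83 in the other 5 lines. For fatty acid synthesis, FASN changed by -0.93, next to -0.89 in ALL-SIL, while SCD, the stearoyl-CoA desaturase, and ACACA, an acetyl-CoA carboxylase, were within the range of the other lines at -0.86 and -0.23. ABCA1 was at 45.1 and 25.8, a change of 0.55, against -0.40 to 0.22.

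The levels of this list in Jurkat were also on the high side. The median level difference from the other lines was 0.66 on the log2 scale, against 0.03 over all genes. Both Jurkat arrays were above the 12 others for 6 of 31, namely ACACA, FDPS, LSS, MVD, PMVK and SC5D, against 5.99% of all genes, and below them for 0. No level of the list was called with limma, and 8 had an unadjusted p under 0.05. The summed signal was 14062 with AS605240 and 25732 with vehicle in Jurkat, against 8232 to 18445 on the other arrays, so that the vehicle array of Jurkat was the highest of the 14 and its AS605240 array was within the range of the other lines. A high starting level and a large drop therefore moved together, and the part of the one in the other was not tested.

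**Figure D3:**
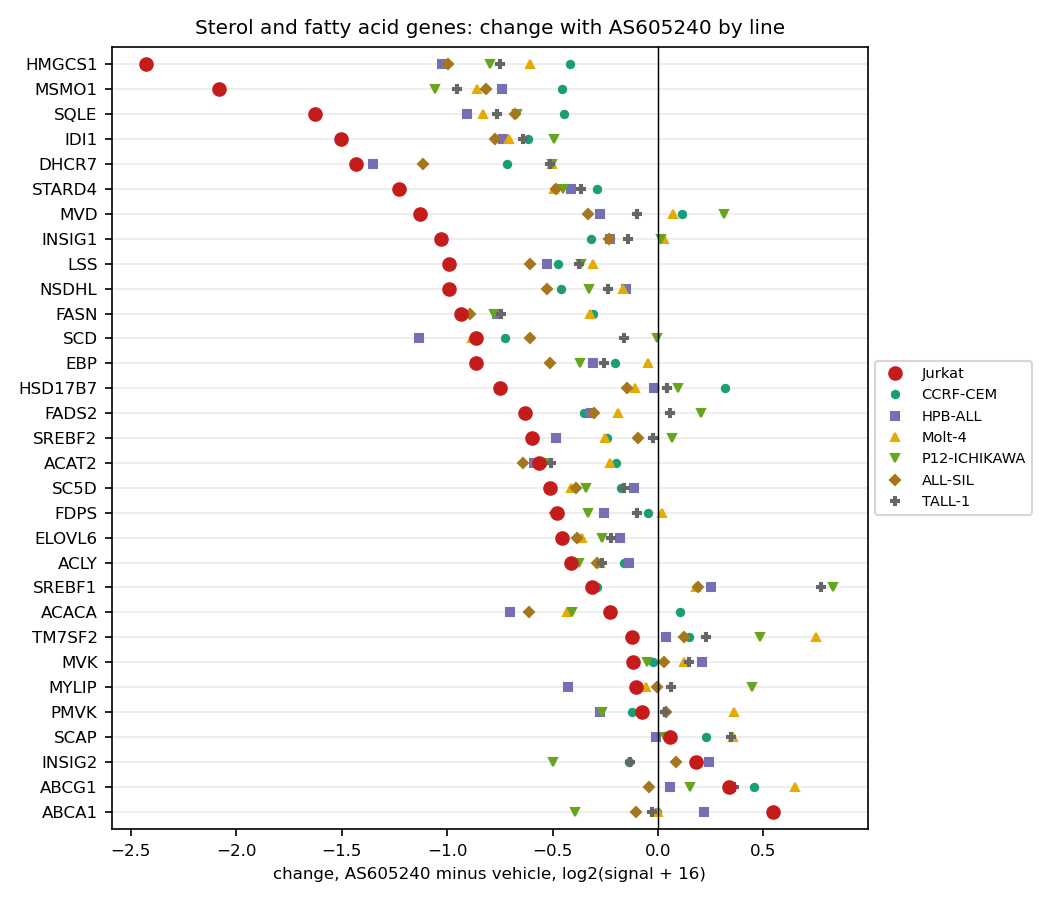
Change with AS605240 minus vehicle, log2(signal + 16), of the 31 measured genes of sterol and fatty acid synthesis in each of the 7 lines, in order of the Jurkat change. Large red circles are Jurkat and small symbols the other lines, with 1 pair of arrays behind each point. The red circle is furthest left for 21 of the 31 genes, with HMGCS1 at -2.43 and MSMO1 at -2.08.

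The promoters of 4 of these genes are shown because their change in Jurkat was well below that of the other lines. They are from RefSeq (GRCh38.p14), 250 bases before to 50 after the gene start, written 5′ to 3′ on the strand of the gene, with CCAAT and its reverse complement ATTGG in capitals. The CCAAT box binds NF-Y, a factor that works together with SREBP at many sterol genes. HMGCS1 is at chr5:43313363-43313662 (minus strand), MSMO1 at chr4:165327419-165327718 (plus strand), INSIG1 at chr7:155297628-155297927 (plus strand) and IDI1 at chr10:1056655-1056954 (minus strand).
HMGCS1: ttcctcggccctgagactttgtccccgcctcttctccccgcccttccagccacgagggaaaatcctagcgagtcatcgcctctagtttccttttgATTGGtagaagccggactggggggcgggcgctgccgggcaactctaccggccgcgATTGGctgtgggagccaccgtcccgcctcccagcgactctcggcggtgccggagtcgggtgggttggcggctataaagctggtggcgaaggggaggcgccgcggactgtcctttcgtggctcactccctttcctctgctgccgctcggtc
MSMO1: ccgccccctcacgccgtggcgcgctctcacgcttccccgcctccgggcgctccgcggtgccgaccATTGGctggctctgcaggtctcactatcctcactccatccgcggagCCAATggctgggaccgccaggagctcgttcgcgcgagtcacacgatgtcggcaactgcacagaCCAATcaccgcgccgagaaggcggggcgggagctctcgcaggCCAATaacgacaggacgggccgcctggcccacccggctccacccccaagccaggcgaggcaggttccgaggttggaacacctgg
INSIG1: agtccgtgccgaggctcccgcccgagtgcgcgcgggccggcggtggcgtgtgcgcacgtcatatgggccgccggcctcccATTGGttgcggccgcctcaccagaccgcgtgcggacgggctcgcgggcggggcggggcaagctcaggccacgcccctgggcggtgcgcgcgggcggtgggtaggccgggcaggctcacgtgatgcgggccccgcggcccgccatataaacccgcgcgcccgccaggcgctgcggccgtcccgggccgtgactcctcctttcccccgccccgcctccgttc
IDI1: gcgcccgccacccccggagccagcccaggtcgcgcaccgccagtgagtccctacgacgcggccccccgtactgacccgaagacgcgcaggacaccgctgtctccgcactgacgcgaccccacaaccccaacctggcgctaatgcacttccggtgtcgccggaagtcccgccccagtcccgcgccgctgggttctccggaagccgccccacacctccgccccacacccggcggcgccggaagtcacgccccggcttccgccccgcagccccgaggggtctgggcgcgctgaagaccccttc

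HMGCS1 held 2 CCAAT boxes, MSMO1 held 4, INSIG1 held 1 and IDI1 held 0. Over both strands, CCAAT was in 15 of the 19 promoters (78.9%) on hand for the list members below the range of the other lines, in 18 of 27 (66.7%) for the whole list and in 9747 of 27305 (35.7%) for all promoters on hand. These 27305 were not limited to the genes measured on the arrays. The exact core of a sterol regulatory element, CACCCCAC or its reverse complement GTGGGGTG, was in none of the 4 and in 1 of 19 (5.26%), 2 of 27 (7.41%) and 742 of 27305 (2.72%). CCAAT can share its end base with CACCCCAC where they adjoin, which none of the 4 promoters shows. Of the 31 genes of the list 27 were matched to a promoter by symbol, and a match is a description of the letters in this window.

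The other 4 genes called in the test of the difference were of unrelated known functions. DNAH10, an axonemal dynein heavy chain, was at 20.8 with AS605240 and 444 with vehicle in Jurkat, a change of -3.64, while the other 12 arrays were at 10.0, 20.4 and 44.8. The vehicle array of Jurkat was thus the single high value of the 14 (difference -3.54 ± 0.30; adjusted p = 0.0012), and the other 2 probe sets of the gene did not show it. ICA1, a protein of secretory vesicles, was at 47.6 and 215, a change of -1.86, against -0.08 to 0.36 (difference -1.98 ± 0.20; adjusted p = 0.00297). Again the vehicle array was the high value, and 1 of 6 probe sets showed it. ABLIM1, an actin-binding LIM protein, was at 636 with AS605240 and 219 with vehicle, a change of 1.47, against -0.28 to 0.10 (difference 1.55 ± 0.18; adjusted p = 0.0112). Its further probe set changed by 0.34, within 0.12 to 0.53. LSAMP, a neuronal adhesion protein, was at 71.2 and 10.7, a change of 1.71, against -0.22 to 0.27 (difference 1.66 ± 0.20; adjusted p = 0.0129), from 1 of 6 probe sets, while the others changed by at most 0.39. When the probe sets of a gene were averaged instead of taking the brightest, none of the 5 calls held, with differences of -1.57 for HMGCS1, -1.13 for DNAH10, -0.23 for ICA1, 0.78 for ABLIM1 and 0.33 for LSAMP. Of these, ICA1 and LSAMP had an adjusted p of 1 under that setting.

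Genes of mitosis were on the other side, with higher changes in Jurkat. In dividing cells, transcripts for spindle, kinetochore and cytokinesis proteins build up in G2 and are cleared after division. The Jurkat change was the highest of the 7 lines for 21 of 38 measured G2/M and mitosis genes (55.3%), against 9.89% of all genes, and the lowest for 0. HPB-ALL was highest for 9, ALL-SIL and TALL-1 for 4 each, and Molt-4 was lowest for 29. The median change was 0.52 in Jurkat, against 0.03 in Molt-4 to 0.38 in HPB-ALL. None of the 38 was called with limma in the test of the difference, and 2 were higher and 0 lower at an unadjusted p under 0.05. Their levels did not set Jurkat apart: for 0 of 38 did both Jurkat arrays lie outside the range of the 12 others.

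CENPF, a kinetochore protein gene, was at 1102 with AS605240 and 513 with vehicle in Jurkat, a change of 1.08. In the other lines it changed by 0.73 in ALL-SIL and by 0.16 to 0.37 elsewhere, and a further probe set changed by 1.04 in Jurkat, against 0.20 to 0.89. DLGAP5, a spindle assembly factor, was at 1302 and 678, a change of 0.92, against 0.06 to 0.53. TTK, a kinase of the spindle checkpoint, was at 1042 and 632, a change of 0.71, against 0.03 to 0.45. These 3 stood clear of the other lines. KIF20A, a kinesin of cytokinesis, changed by 0.85, against 0.27 to 0.79, and PLK1, the Polo-like kinase, by 0.55, against 0.04 to 0.52, so that ALL-SIL was close to Jurkat in both. CDK1 and CCNB1, the mitotic kinase and its cyclin, were within the range of the other lines, at 0.16 and 0.29.

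**Figure D4:**
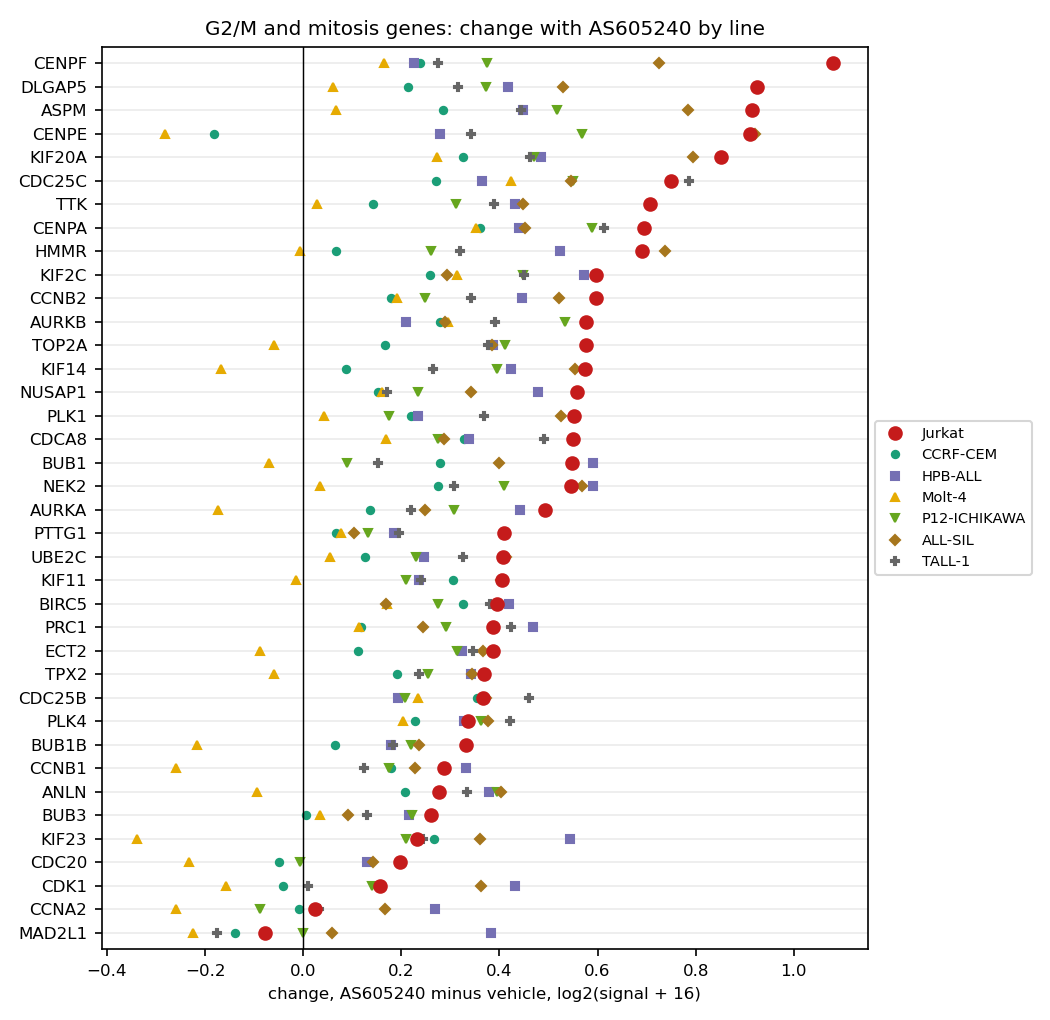
Change with AS605240 minus vehicle, log2(signal + 16), of the 38 measured G2/M and mitosis genes in each of the 7 lines, in order of the Jurkat change. Large red circles are Jurkat and small symbols the other lines, with 1 pair of arrays behind each point. The red circle is furthest right for 21 of the 38 genes and Molt-4 is furthest left for 29.

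Genes of the step before, G1/S and DNA replication, did not share this. The Jurkat change was the lowest of the 7 lines for 13 of 42 and the highest for 0, against 13.5% and 9.89% of all genes, with a median of -0.03 in Jurkat, against 0.01 to 0.18. CDT1, which licenses replication origins, was at 454 with AS605240 and 463 with vehicle in Jurkat, a change of -0.03, against 0.32 to 0.71 in the other lines. SLBP, which binds histone mRNA in S phase, was at 1633 and 2165, a change of -0.40, against -0.13 to 0.10. None of the 42 was called with limma, and 1 was lower at an unadjusted p under 0.05.

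Genes that report on receptor and kinase activity had lower changes in Jurkat than elsewhere in several cases, none of which passed the test. Of 31 immediate early and ERK feedback genes, 12 had their lowest change in Jurkat and 2 their highest, against 13.5% and 9.89% of all genes, and the median was -0.18, against -0.05 to 0.09. JUND, an AP-1 subunit, was at 485 with AS605240 and 713 with vehicle, a change of -0.54, against 0.02 to 0.46. SPRED2, an inhibitor of the Ras to ERK pathway, was at 216 and 331, a change of -0.58, against -0.10 to 0.39. DUSP6, the phosphatase that ERK induces against itself, was dim in Jurkat, at 25.4 and 30.8, against 66.4 or more in the other lines, and changed by -0.18, against 0.11 to 0.94. None of the 31 was called with limma, and 4 were lower at an unadjusted p under 0.05.

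For the Notch list the Jurkat changes were also on the low side. In Jurkat 9 of 24 members had their lowest change and 3 their highest, against 13.5% and 9.89% of all genes, and the median was -0.09, against 0.06 to 0.15. HES1, the classic Notch target, was at 192 with AS605240 and 297 with vehicle in Jurkat, a change of -0.59, against 0.02 to 0.32 (adjusted p = 0.565). DTX1, another target, was at 225 and 337, a change of -0.55, against -0.17 to 0.59. NOTCH1 changed by -0.24, against 0.06 to 0.39. These were opposite in sign to all, or for DTX1 all but CCRF-CEM, of the other lines. No member was called with limma, and 5 were lower and 1 higher at an unadjusted p under 0.05.

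Among proximal T-cell receptor genes, the low side held more members than the high side. Of 27 measured, 9 had their lowest change in Jurkat, against 13.5% of all genes, and 3 their highest, against 9.89%. LCP2 and LAT, the adaptors that carry the signal of ZAP70, were among the lowest, with LCP2 at 421 with AS605240 and 560 with vehicle, a change of -0.40, against 0.02 to 0.24, and LAT at 457 and 773, a change of -0.74, against -0.28 to 0.27. SYK and SH2D1A, the adaptor SAP, were among the highest, with changes of 0.44, against -0.10 to 0.17, and of 0.58, against -0.21 to 0.32. None was called with limma, and 3 were lower and 1 higher at an unadjusted p under 0.05.

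Over the 31 gene lists, the Jurkat median change was the lowest of the 7 lines for 11, the highest for 1, G2/M and mitosis, and within the other lines for 19. Besides those described, it was lowest, by small margins, for the BCL2 family and death receptors (-0.03, against 0.00 to 0.21, with 7 of 28 members lowest in Jurkat), for cytokine receptors and JAK-STAT (0.01, against 0.04 to 0.14, with 8 of 33), and for chemokine receptors, selectins and integrins (-0.03, against 0.03 to 0.14, with 7 of 28). The same held for cytosolic heat shock proteins (-0.26, against -0.25 to -0.04, with 4 of 21), for cell cycle inhibitors and cyclins (0.00, against 0.01 to 0.19, with 3 of 26) and for B-cell markers (-0.21, against -0.11 to 0.11, with 2 of 11). The all-gene share for the lowest change is 13.5%, and no member of these 6 lists was called with limma, with 1 to 3 lower and 0 to 2 higher per list at an unadjusted p under 0.05.

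Lists of growth and metabolism were within the range of the other lines. The 63 measured ribosome biogenesis genes had a median change of -0.46 in Jurkat, against -0.59 to -0.20 in the other lines, with 7 lowest and 2 highest in Jurkat. Those of endoplasmic reticulum chaperones were at -0.26, against -0.40 to -0.10, those of glycolysis at -0.22, against -0.41 to -0.04, and those of lysosome and autophagy at 0.14, against 0.12 to 0.24. HK2, the hexokinase induced by Akt signaling, had its lowest change in Jurkat, at 127 with AS605240 and 318 with vehicle, a change of -1.23, against -0.97 to -0.38 (adjusted p = 1). MYC was at 2271 and 2233 in Jurkat, a change of 0.02, against -0.23 to 0.09. PIK3CD changed by 0.52, at the low end of a range of 0.52 to 1.24 in the other lines.

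**Figure D5:**
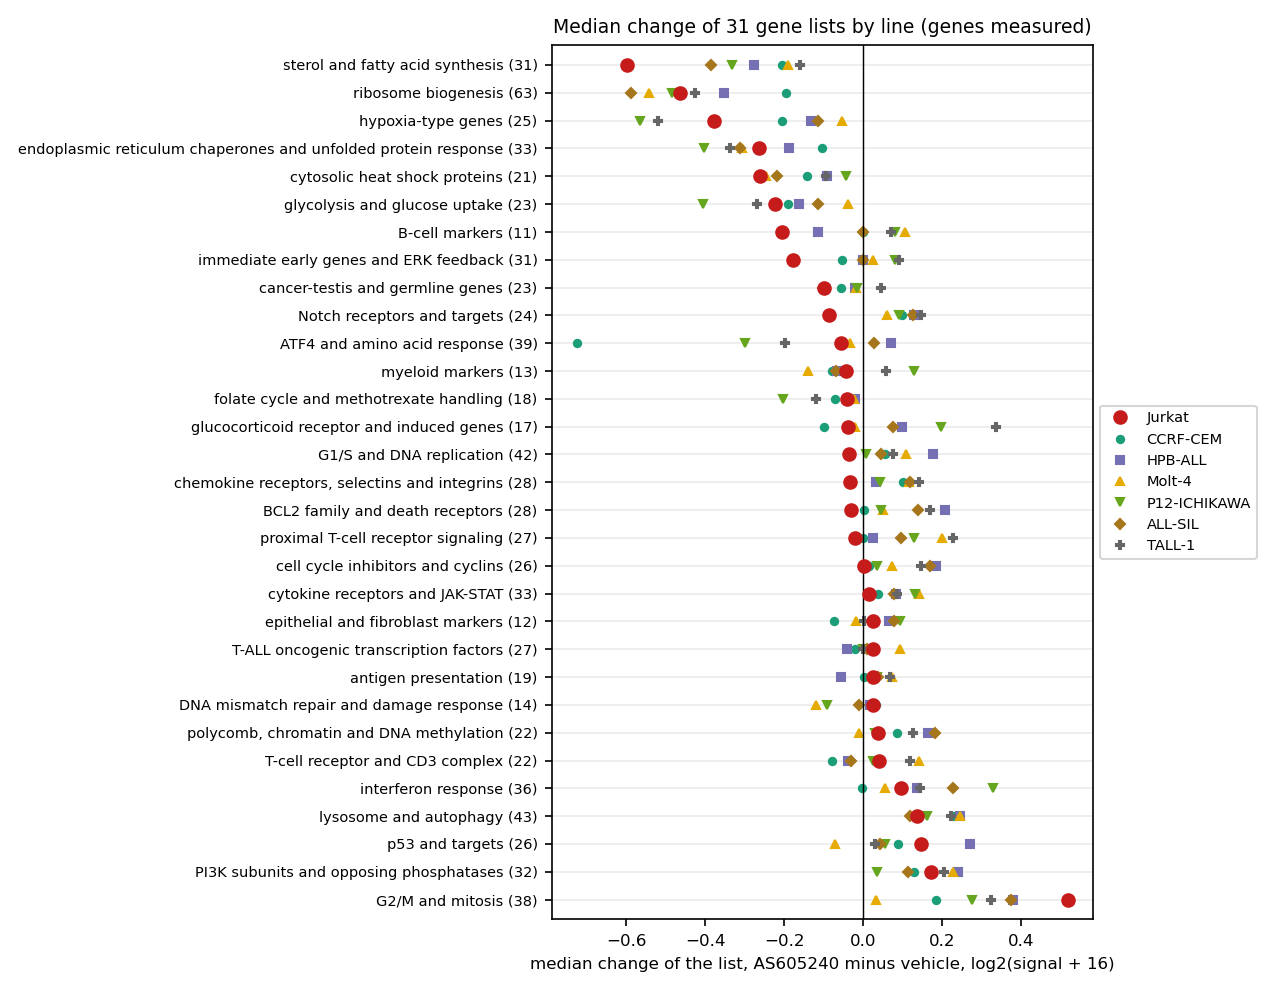
Median change with AS605240 minus vehicle, log2(signal + 16), of each of 31 gene lists in each of the 7 lines, with the number of genes measured in parentheses and the lists in order of the Jurkat median. Large red circles are Jurkat and small symbols the other lines. Jurkat is furthest left for sterol and fatty acid synthesis, at -0.60, and furthest right for G2/M and mitosis, at 0.52, and within the other lines for ribosome biogenesis, at -0.46.

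Single genes of other kinds completed the list of the widest departures among genes with a signal over 50 on at least 7 arrays. LRRCC1, a centrosomal protein gene, was at 145 with AS605240 and 29.4 with vehicle in Jurkat, a change of 1.83, against -1.05 in P12-ICHIKAWA to 0.40 (adjusted p = 0.555). THAP9-AS1, a noncoding RNA, was at 808 and 329, a change of 1.26, against 0.33 to 0.86. SEC22C, a gene of vesicle transport, was at 647 and 355, a change of 0.84, against -0.02 to 0.34. All 3 were above the range of the other lines, as were CABP4, REXO5, ATP6V1E2, MAP7D3 and TRIM24, at 0.48 to 1.12. On the lower side, ZNF93 was at 48.3 and 96.9 in Jurkat, a change of -0.81, against 0.06 to 0.34 (adjusted p = 0.162), and its level was also below that of every other line. TSPAN31 was at 4.28 and 13.3, a change of -0.53, against 0.19 to 0.73. HYAL2, a hyaluronidase, was at 165 and 437, a change of -1.32, next to -1.07 in Molt-4 and against -0.22 to 0.04 in the remaining 5 lines.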

How the data were processed

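RNA of 7 T-ALL lines, with AS605240 or vehicle for 6 h, was hybridized by the authors to 14 Affymetrix HG-U133 Plus 2.0 arrays, 1 per line and condition. The deposited values were linear signal intensities, summarized by PLIER in Affymetrix Expression Console 1.3.1.187 per the submitters' processing notes. The sources used here do not give the normalization that preceded it. Of 54675 probe sets, 41091 named a single gene, 1801 several and 11721 none, and the brightest single-gene probe set was kept per gene. Here 16 was added and log2 taken (R 4.3.3). Jurkat was tested against the 6 other lines with limma 3.58.1 and Benjamini-Hochberg adjustment over 19775 genes, on line means for level and on AS605240 minus vehicle for response, with Jurkat as 1 value against 6. The line is thus the pair of each change. The number of arrays limits the precision, and separate cultures were not replicated. The script was checked on simulated data.

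Lists, genes and comparisons were chosen with earlier results of these data known. The named genes were the 12 widest gaps each way among level calls, all response calls and the 10 largest differences each way outside the range of the other lines (signal over 50 on at least 7 arrays), the 5 largest shared changes each way and the exceptions, called list members, and fixed T-ALL genes. Other genes were named after their values were seen. Alternatives were the added constant, normalization, probe set rule, signal filter and left-out lines.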

Additional observations from a re-analysis of the deposited data

Results flagged for a closer look

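In the test of the difference between the change of Jurkat and the changes of the other 6 lines, 5 genes differed (limma, 1 Jurkat change against 6). The difference was -3.54 on the log2 scale for DNAH10, -1.98 for ICA1, -1.66 for HMGCS1, 1.66 for LSAMP and 1.55 for ABLIM1. The change of Jurkat lay outside the range of the other 6 lines for each.

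Of 22 genes whose changes over the 6 other lines were searched for a line far from the rest, 2 had such a line, and chance gives about 1 in 20. CENPF changed by 0.73 in ALL-SIL, against 0.16 to 0.37 in the remaining 5, while Jurkat was at 1.08. HYAL2 changed by -1.07 in Molt-4, against -0.22 to 0.04 in the remaining 5, while Jurkat was at -1.32.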

How the results depend on the processing

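The 5 calls on the change with AS605240 were the least stable result. With 4 added in place of 16, and when the probe sets of a gene were averaged, 0 genes had a higher and 0 a lower change in Jurkat at an adjusted p under 0.05. HMGCS1 then had an adjusted p of 0.464 with 4 added and of 0.278 with averaged probe sets. With 64 added its adjusted p was 0.119. Genes with a higher change numbered 1 with a signal over 50 on at least 7 arrays, 1 with such a signal on at least 2 arrays (chosen after seeing the data) and 4 with arrays centred on their median. Under quantile normalization and under median centring all 5 genes remained called.

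For level, the higher and lower genes numbered 774 and 462 when the 14 arrays were fitted with cell line and treatment in the model. That fit takes the 2 arrays of a line as replicates, so the spread between the lines does not enter its error. With a signal over 50 on at least 7 arrays, which leaves fewer genes, 1 was higher and 6 were lower. A gene bright in Jurkat alone is over 50 on 2 arrays and cannot pass that filter, which left 17 of the 62 level calls to test. With such a signal on at least 2 arrays, 44 of the 48 level calls left to test remained. The lower genes numbered 4 with 64 added and 7 with P12-ICHIKAWA and TALL-1 merged as 1 line. Leaving out each other line in turn gave 31 to 84 higher genes (84 without Molt-4) and 6 to 22 lower ones (6 without TALL-1, 7 without P12-ICHIKAWA, 10 without CCRF-CEM), 2 to 3 genes with a higher change and 2 to 4 with a lower one. The causes were not tested.

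The share of shared-response genes with the same sign in Jurkat was 94.7% with 4 added and 97.5% to 99.0% with a line left out, and the projection was 0.708 to 0.786. The count of sterol and fatty acid genes lowest in Jurkat was 18 under quantile normalization, 20 of 31 with 4 added or with median centring, 20 of 28 with a signal over 50 on at least 7 arrays, and 21 to 22 with a line left out. That of mitosis genes highest in Jurkat was 20 with averaged probe sets, 27 under quantile normalization, 26 with median centring and 21 to 24 with a line left out. With median centring, 9.45% of all genes had their lowest change in Jurkat and 13.9% their highest. The other lists were not recounted under these settings. No difference of a named gene reversed its sign. The changes use the pairing within each line, and no further pairing was possible because the labels carry no replicate numbers. Each change rests on 1 pair of arrays, so a change of a dim gene is the least certain.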
